A study of Mus musculus with 12 samples.

Results

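Contractile and mural cell genes were followed across pancreatic ductal adenocarcinomas from KPC mice, which develop this cancer through engineered alleles. The set holds 10 genes, Acta2, Tagln, Mylk, Myh11, Cnn1, Actg2, Myl9, Des, Pdgfrb and Rgs5. They were chosen by symbol, with earlier results of these data known. Each was found once among the 52636 Ensembl genes measured. The tumours came from 4 groups of 3 mice with a strain background given as C57BL/6 and 129. Untreated mice were KPC/CDH11+/+ (wild-type) or KPC/CDH11+/- (heterozygous), and gemcitabine-treated mice had the same 2 genotypes. Every mouse, controls included, carried the KPC alleles. For the Cre driver, the ages, and the dose and schedule of gemcitabine, a deoxycytidine analogue, no source used here states a value. Cdh11 encodes cadherin 11, which joins mesenchymal cells to each other, and the series asks about its part in tumour growth, immune suppression, matrix deposition and drug response.

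Smooth muscle cells and activated fibroblasts contract through actin filaments that myosin II pulls on once its regulatory light chain is phosphorylated by myosin light chain kinase. Serum response factor and its myocardin-family partners switch on many of the contractile genes through a promoter element called the CArG box. Pericytes and vascular smooth muscle, together called mural cells, wrap vessels and depend on PDGF-B from endothelium acting on PDGF receptor beta. In pancreatic cancer Acta2 marks the myofibroblastic fraction of the fibroblasts as well as vascular smooth muscle, so a bulk tumour level mixes both.

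Stretches of the Acta2 and Myl9 promoters are shown because, among the genes with a window, only these 2 held matches to the CArG box. Across the tumours their levels had a Pearson r of 0.93. Des, whose window held no match, had r = 0.87 with Myl9, and a link between match and level was not tested. The box is CC, then 6 bases that are each A or T, then GG, and it reads the same on both strands. It was sought in the 250 bases before the RefSeq start (GRCm38.p6). Each stretch is 30 bases, written 5′ to 3′ on the strand of the gene, with the place that matches within 1 mismatch in capitals.
Acta2, chr19:34255438-34255467, minus strand: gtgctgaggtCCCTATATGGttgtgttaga
Acta2, chr19:34255388-34255417, minus strand: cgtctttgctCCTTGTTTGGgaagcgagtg
Myl9, chr2:156775293-156775322, plus strand: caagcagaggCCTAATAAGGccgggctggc
Myl9, chr2:156775355-156775384, plus strand: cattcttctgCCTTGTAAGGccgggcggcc
Windows were given for 6 of the 10 genes, Acta2, Mylk, Cnn1, Myl9, Des and Rgs5. The first Myl9 place is exact and begins 161 bases before the start, and the second, with 1 mismatch, begins 99 bases before it. Both Acta2 places have 1 mismatch and begin 84 and 34 bases before the RefSeq start. The GENCODE M21 annotation starts Acta2 farther upstream, so all 30 bases of both Acta2 stretches lie in its first exon there, while the Myl9 stretches lie outside its exons. Of all 32851 promoter windows of this length, 1.47% held an exact box, 18.6% held a place within 1 mismatch and 2.96% held at least 2 such places. The windows of Mylk, Cnn1, Des and Rgs5 held none. The Mylk window, chr16:34784700-34784949, lies inside the gene as GENCODE M21 places it, which starts at 34745210. The bases before that outer start of Mylk were not searched. A match describes these letters and shows no binding.

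Libraries held between 39388328 and 56559413 expected counts, and 24065 genes were tested. Cdh11 lay at 165 to 283 CPM (counts scaled by library size) in untreated wild-type and 73.7 to 148 CPM in untreated heterozygous tumours. It lay at 62.2 to 142 CPM in treated wild-type and 72.0 to 141 CPM in treated tumours labelled heterozygous, with a log2 difference of -0.02 (95% interval -0.83 to 0.79), so its level did not separate the treated groups. In what follows, a treated heterozygous tumour means the library so labelled. Xist, transcribed from the silenced X of female cells, was at 1220 CPM or above in all 3 treated wild-type libraries and at 1.22 CPM or below in all 3 treated heterozygous libraries, so genotype and this gene cannot be told apart there. Among untreated libraries it was high in 2 wild-type and 1 heterozygous. All CPM values are scaled by the trimmed mean of M-values (TMM), apart from those of Xist, and are per library of 1 mouse.

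All 10 genes were measured in every library, between 114 counts (Cnn1) and 14004 counts (Pdgfrb), and all passed the filter on low counts. Per kilobase of exon, Acta2, smooth muscle alpha-actin, had the highest mean level over the 12 libraries, at 63.3 ± 26.4 CPM per kilobase (SD, n = 12). Next came the actin-binding protein transgelin, Tagln, at 49.9 ± 19.4, which was lower than Acta2 in 11 of 12 libraries. Myl9, the regulatory light chain, and Pdgfrb, the PDGF receptor, followed at 27.4 ± 11.1 and 26.8 ± 11.9 CPM per kilobase. These neighbours did not separate, with Myl9 above Pdgfrb in 7 of 12 libraries. Rgs5, a pericyte regulator of G protein signalling, Actg2, smooth muscle gamma-actin, and Mylk, the light chain kinase, had means of 15.5 ± 13.9, 14.3 ± 10.4 and 10.2 ± 4.31 CPM per kilobase, and desmin, Des, a muscle intermediate filament, 9.83 ± 4.92. Each of these neighbours was the higher one in 6 or 7 of 12 libraries. Myh11, smooth muscle myosin heavy chain, at 6.74 ± 4.43, and Cnn1, calponin 1, at 3.69 ± 2.91, both markers of mature smooth muscle, were the lowest. Between the lowest and the highest library the levels differed 3.16-fold for Mylk and 11.7-fold for Rgs5, the smallest and the largest ranges of the set.

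**Figure D1:**
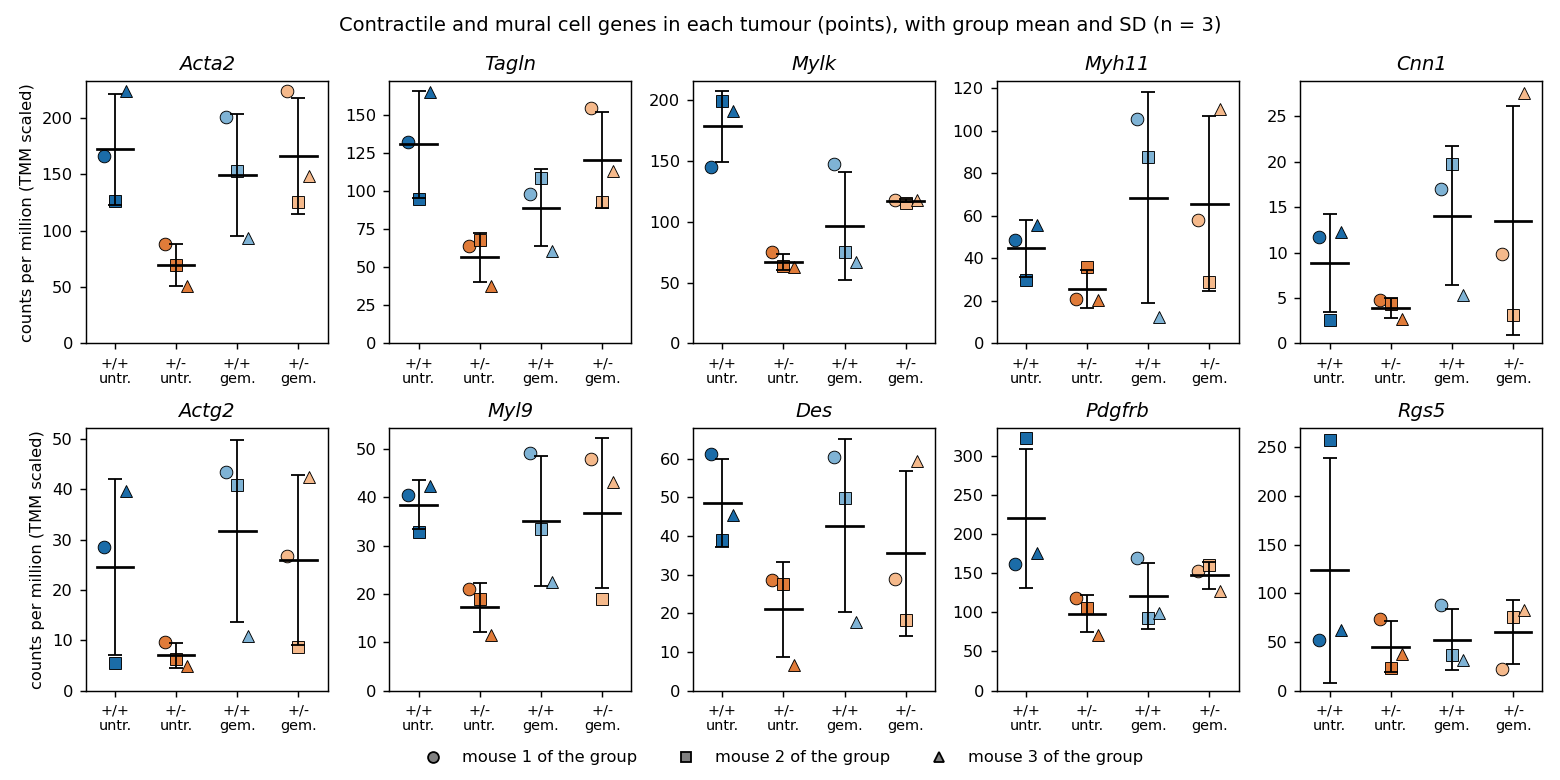
CPM of each of the 10 genes (one panel per gene, linear axis from 0) in the 4 groups; points are tumours, marker shape is the mouse number within its group, the horizontal bar is the group mean and the error bar the SD (n = 3). The untreated heterozygous tumours hold the lowest group mean of every gene, for example 69.4 CPM of Acta2 against 172 CPM in untreated wild-type tumours.

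Untreated heterozygous tumours had lower mean levels of all 10 genes than untreated wild-type tumours, with a median log2 fold change of -1.21, or fold changes between 0.283 (Actg2) and 0.573 (Myh11). None of the 10 passed an adjusted p of 0.05 over all genes (edgeR quasi-likelihood test, Benjamini-Hochberg; adjusted p between 0.14 and 0.67), a threshold that 0.0166% of the genes tested passed. An unadjusted p under 0.05 with a lower level was reached by 6 of the 10, Acta2, Tagln, Mylk, Actg2, Myl9 and Pdgfrb, against 6.65% of all genes. In 6 genes, Acta2, Tagln, Mylk, Myl9, Des and Pdgfrb, every heterozygous library lay below every wild-type library, against 8.41% of all genes. The 10 genes were not picked blind to these data and many ran together, so such counts are a description only. The median over all genes tested was 0.04. With DESeq2, an alternative test, 4 of the 10 passed, Mylk, Acta2, Tagln and Pdgfrb, with DESeq2 adjusted p between 0.000719 and 0.0363, but it called 704 genes in all, against 4 with edgeR.

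Acta2 (chromosome 19, 34241090 to 34255590, minus strand, GRCm38) had 166, 126 and 224 CPM in the untreated wild-type tumours of mice 1, 2 and 3 and 87.9, 69.6 and 50.6 CPM in the heterozygous tumours. The groups did not overlap, with a log2 fold change of -1.31 ± 0.34 (SE; 95% interval -2.06 to -0.56; edgeR adjusted p = 0.21). Tagln (chromosome 9, 45929619 to 45936058, minus strand), which cross-links actin filaments, had 132, 95 and 165 CPM against 64.0, 67.6 and 38.0 CPM (log2 -1.21 ± 0.32, edgeR adjusted p = 0.21), again with no overlap. Exons of other genes on the opposite strand, Gm48529 and Pcsk7, overlap 62.4% and 5.43% of the exon bases of Tagln, and no source used here says whether the counting was by strand. Gm48529 was at 2.86 to 9.79 CPM and Pcsk7 at 32.1 to 74.7 CPM, so reads from them could enter the Tagln count if strand was not used. Opposite-strand exons also overlap 4.87% and 1.99% of the exon bases of Mylk and 5.86% of those of Des.

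The kinase, light chain and heavy chain of smooth muscle myosin had lower means in heterozygous tumours, and none passed. Mylk (chromosome 16, 34745210 to 35002420, plus strand) had the smallest p of the set, at 145.5, 200 and 192 CPM in wild-type against 74.9, 63.7 and 63.3 CPM in heterozygous tumours (log2 -1.41 ± 0.27, interval -2.01 to -0.81, edgeR adjusted p = 0.14). Myl9 (chromosome 2, 156775420 to 156781658, plus strand), the substrate of that kinase, had 40.5, 32.7 and 42.3 CPM against 21.1, 19.0 and 11.5 CPM (log2 -1.16 ± 0.38, edgeR adjusted p = 0.28). Both genes separated the groups. Myh11 (chromosome 16, 14194535 to 14291372, minus strand), the motor itself, overlapped, with 48.6, 29.8 and 56.0 CPM against 20.9, 35.9 and 20.2 CPM (log2 -0.80 ± 0.66, edgeR adjusted p = 0.67).

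Calponin and gamma-actin, which mark differentiated and visceral smooth muscle, were low in 1 wild-type tumour as well. Cnn1 (chromosome 9, 22099216 to 22109630, plus strand) had 11.7, 2.63 and 12.25 CPM in wild-type and 4.79, 4.34 and 2.66 CPM in heterozygous tumours (log2 -1.17 ± 0.77, edgeR adjusted p = 0.58). Actg2 (chromosome 6, 83512905 to 83536265, minus strand) had 28.7, 5.42 and 39.7 CPM against 9.62, 6.35 and 4.95 CPM (log2 -1.82 ± 0.76, edgeR adjusted p = 0.37). With Xist as a covariate the log2 fold change of Actg2 was -0.93 and that of Cnn1 -0.50. In both genes wild-type mouse 2 lay inside or below the heterozygous range, and mice 1 and 3 lay above it. Actg2 and Acta2 transcripts share 84.1% identity over 1147 aligned bases, and no member had a copy at 95% identity over 50% of its longest transcript. Per kilobase, Actg2 was at 24.4%, 6.05% and 25.0% of the Acta2 level in the wild-type and at 15.4%, 12.9% and 13.8% in the heterozygous tumours. Desmin, Des (chromosome 1, 75360329 to 75368579, plus strand), had 61.2, 38.99 and 45.5 CPM against 28.7, 27.6 and 6.73 CPM, with no overlap (log2 -1.21 ± 0.60, edgeR adjusted p = 0.45). Without heterozygous mouse 3, the lowest, its log2 fold change was -0.79.

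The 2 mural markers had their highest level of the series in wild-type mouse 2. Pdgfrb (chromosome 18, 61045150 to 61085061, plus strand) had 162, 323 and 176 CPM in wild-type and 118, 106 and 71.5 CPM in heterozygous tumours (log2 -1.16 ± 0.32, interval -1.87 to -0.46, edgeR adjusted p = 0.23). Rgs5 (chromosome 1, 169655501 to 169695813, plus strand) had 51.8, 257 and 62.5 CPM against 73.8, 22.9 and 38.0 CPM (log2 -1.46 ± 0.72, edgeR adjusted p = 0.45). The groups separated for Pdgfrb and overlapped for Rgs5. Without wild-type mouse 2 the log2 fold change of Rgs5 was -0.33 and that of Pdgfrb -0.77, so the Rgs5 value rests on that tumour.

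**Figure D2:**
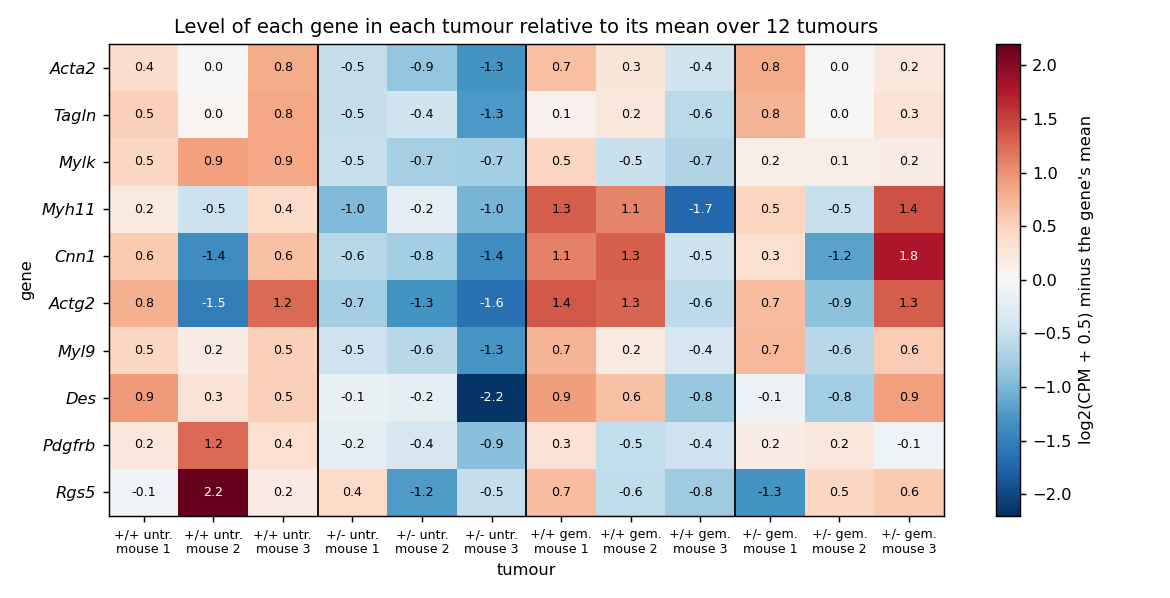
Level of each gene (rows) in each of the 12 tumours (columns, in blocks of 3 mice per group) as log2(CPM + 0.5) minus the mean of the gene over all tumours; red is above and blue below the mean. In untreated wild-type mouse 2, Rgs5 (257 CPM) and Pdgfrb (323 CPM) are at their highest while Cnn1 (2.63 CPM) and Actg2 (5.42 CPM) are low.

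Gemcitabine in wild-type mice was compared with no treatment to see whether the drug itself moved these genes. Of the 10 genes, 7 had a lower and 3 a higher mean (Myh11, Cnn1 and Actg2), with a median log2 fold change of -0.20 against 0.01 over all genes. Leaving out 1 library moved this median between -0.506 and 0.0697, the latter without treated wild-type mouse 3, and turned the sign of Acta2, Myl9, Des or Actg2. None passed the adjusted threshold (edgeR adjusted p between 0.56 and 0.94), as 0.0% of the genes tested did. Mylk and Pdgfrb reached an unadjusted p under 0.05 as lower, against 4.55% of all genes. In no gene did the 3 treated tumours lie below all untreated ones, against 7.17% of all genes. DESeq2 called 122 genes but none of the 10.

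Mylk had 147, 75.4 and 66.7 CPM in the treated wild-type tumours, of which mouse 1 overlapped the untreated range (log2 -0.89 ± 0.27, interval -1.48 to -0.30, edgeR adjusted p = 0.56). Pdgfrb had 169, 93.0 and 99.7 CPM (log2 -0.87 ± 0.32, edgeR adjusted p = 0.56), also with mouse 1 inside the untreated range. Rgs5 had 88.15, 37.0 and 31.9 CPM (log2 -1.24 ± 0.72), and without untreated mouse 2 the difference was -0.11. The contractile genes spread widely within this group. Acta2 had 201, 153 and 93.5 CPM, Tagln 97.8, 109 and 60.5 CPM, and Myl9 49.2, 33.5 and 22.4 CPM. Their log2 fold changes of -0.21 ± 0.34, -0.55 ± 0.31 and -0.14 ± 0.38 had 95% intervals that included 0. Myh11 had 106, 87.8 and 12.25 CPM, Cnn1 17.0, 19.8 and 5.37 CPM, Actg2 43.5, 41.0 and 10.9 CPM and Des 60.5, 49.8 and 17.6 CPM. In each of these 4 genes mice 1 and 2 were high and mouse 3 low.

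Gemcitabine in heterozygous mice went with higher mean levels of all 10 genes, with a median log2 fold change of 1.09 against -0.03 over all genes. This comparison uses the same 3 untreated heterozygous tumours as the genotype comparison above, in which every gene was low, so the 2 sets of values are not independent. None of the 10 passed (edgeR adjusted p between 0.59 and 0.92), against 0.00831% of the genes tested, and DESeq2 called none of the 10 and 170 genes in all. An unadjusted p under 0.05 as higher was reached by 6 genes, Acta2, Tagln, Mylk, Cnn1, Actg2 and Myl9, against 4.42% of all genes. In 4 genes, Acta2, Tagln, Mylk and Pdgfrb, every treated tumour lay above every untreated one, against 6.64% of all genes.

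Acta2 had 224, 126 and 148 CPM in the treated heterozygous tumours, all above the untreated 50.6 to 87.9 CPM (log2 1.26 ± 0.34, interval 0.51 to 2.01, edgeR adjusted p = 0.59). Tagln had 155, 92.9 and 113 CPM (log2 1.09 ± 0.31, edgeR adjusted p = 0.59), and Mylk 118, 116 and 118 CPM (log2 0.80 ± 0.27, edgeR adjusted p = 0.59). Mylk was the most even gene of this group, with an SD of 1.33 CPM around a mean of 117 CPM. Pdgfrb had 153, 161 and 128 CPM (log2 0.58 ± 0.32, edgeR adjusted p = 0.67), and Myl9 48.0, 19.0 and 43.2 CPM (log2 1.09 ± 0.38, edgeR adjusted p = 0.59). In Myl9 mouse 2 lay within the untreated range.

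The smooth muscle markers were spread over a wide range among the treated heterozygous tumours. Myh11 had 58.0, 29.0 and 110 CPM, Cnn1 9.85, 3.12 and 27.6 CPM, Actg2 26.8, 8.60 and 42.5 CPM, and Des 28.8, 18.3 and 59.4 CPM. Mouse 3 was the highest and mouse 2 the lowest in all 4. Their log2 fold changes were 1.36 ± 0.67, 1.78 ± 0.78, 1.90 ± 0.76 and 0.76 ± 0.60, and without treated mouse 3 those of Cnn1 and Des were 0.73 and 0.17. Rgs5 had 22.0, 76.0 and 82.6 CPM and overlapped the untreated tumours (log2 0.42 ± 0.71). Its lowest tumour, mouse 1, had the highest Acta2 and Tagln of the group.

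**Figure D3:**
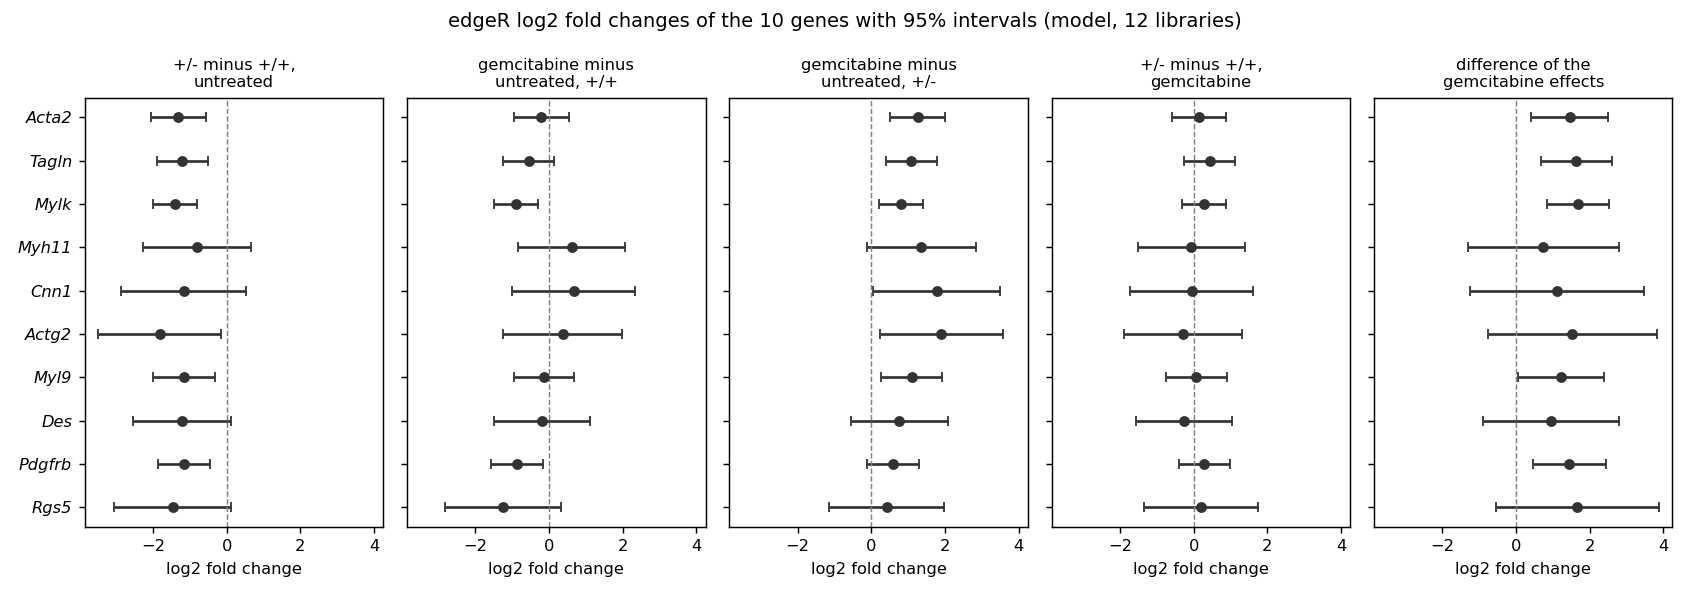
edgeR log2 fold changes (horizontal axis) of the 10 genes (vertical axis) in the 5 comparisons, one panel each, with 95% intervals from the model over 12 libraries; the dashed line marks no difference. All 10 points lie left of 0 for genotype in untreated mice (median -1.21), right of 0 for gemcitabine in heterozygous mice (median 1.09), and close to 0 for genotype in treated mice (median 0.11).

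The genotypes were also compared among treated mice. The log2 differences of heterozygous against wild-type tumours ran from -0.29 (Actg2) to 0.43 (Tagln), 6 positive and 4 negative, with a median of 0.11 against -0.03 over all genes. None passed (edgeR adjusted p between 0.85 and 0.996), against 0.00416% of the genes tested, and DESeq2 called none of the 10 and 234 genes in all. No gene reached an unadjusted p under 0.05, against 7.55% of all genes, and the groups overlapped for all 10, while 13.7% of all genes did not overlap. The 95% intervals bound the difference to 0.668-fold to 1.86-fold for Acta2, 0.841-fold to 2.17-fold for Tagln, 0.809-fold to 1.83-fold for Mylk and 0.752-fold to 1.98-fold for Pdgfrb. For Cnn1 the interval ran from 0.303-fold to 3.055-fold and for Rgs5 from 0.391-fold to 3.38-fold. Their intervals in untreated tumours, 0.137-fold to 1.44-fold and 0.121-fold to 1.09-fold, overlapped these. With Xist as a covariate, which follows genotype in these 6 mice, 9 of the 10 differences were positive (median 0.37), Actg2 at 1.35 and Cnn1 at 1.19, and 5 signs turned. A p that misses the threshold does not show that the groups were alike.

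The difference of the 2 gemcitabine effects, heterozygous minus wild-type, was positive for all 10 genes, with a median of 1.46 against -0.07 over all genes. It equals the genotype difference in treated mice minus that in untreated mice. All 10 were low in untreated heterozygous tumours, so the positive signs of these genes are not a separate result. None passed (edgeR adjusted p between 0.25 and 0.80), against 0.00831% of the genes tested. The unadjusted p was under 0.05 and the difference positive for 5, Acta2, Tagln, Mylk, Myl9 and Pdgfrb, against 7.14% of all genes. Mylk had 1.69 ± 0.38 (interval 0.85 to 2.53), Tagln 1.64 ± 0.44, Acta2 1.47 ± 0.48 and Pdgfrb 1.45 ± 0.45, with edgeR adjusted p of 0.25, 0.25, 0.28 and 0.26. Without treated wild-type mouse 1 Mylk was at 2.14 and passed (edgeR adjusted p = 0.0494). With DESeq2, which called 656 genes in all, Mylk and Tagln passed (DESeq2 adjusted p = 0.0107 and 0.0341). Myh11 had 0.74 ± 0.93 and Cnn1 1.12 ± 1.08, and without treated heterozygous mouse 3 these were 0.15 and 0.06.

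Across the 12 tumours the genes differed in how closely they ran together, given here as a description with no test. Cnn1 and Actg2 ran closest, with a Pearson r of 0.96 and a Spearman coefficient of 0.97 on log2(CPM + 0.5), and r = 0.96 after the group means were removed. Acta2 and Tagln had r = 0.94 and Spearman coefficient = 0.92, or 0.91 with group means removed, and Acta2 and Myl9 had r = 0.93. Mylk and Pdgfrb had r = 0.90, Spearman coefficient = 0.92 and 0.72 with group means removed. Pdgfrb and Rgs5 had r = 0.72 and Spearman coefficient = 0.61, and r = 0.46 without the 2 tumours farthest from the median of Pdgfrb. By contrast Pdgfrb had r = -0.03 with Cnn1 and 0.09 with Actg2, and Rgs5 had -0.10 and -0.07 with the same genes. Without the 2 tumours farthest from the median of Cnn1, Pdgfrb and Rgs5 had 0.18 and -0.17 with Cnn1. Without the 2 farthest from the median of Actg2, they had 0.34 and 0.29 with Actg2. Mylk had 0.25 with Cnn1 and 0.39 with Actg2 over all tumours. Of the 45 pairs 22 had r above 0.7, with a median of 0.69. The tumours of one group share genotype and treatment, and all values of a tumour share its library and its dissected piece.

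**Figure D4:**
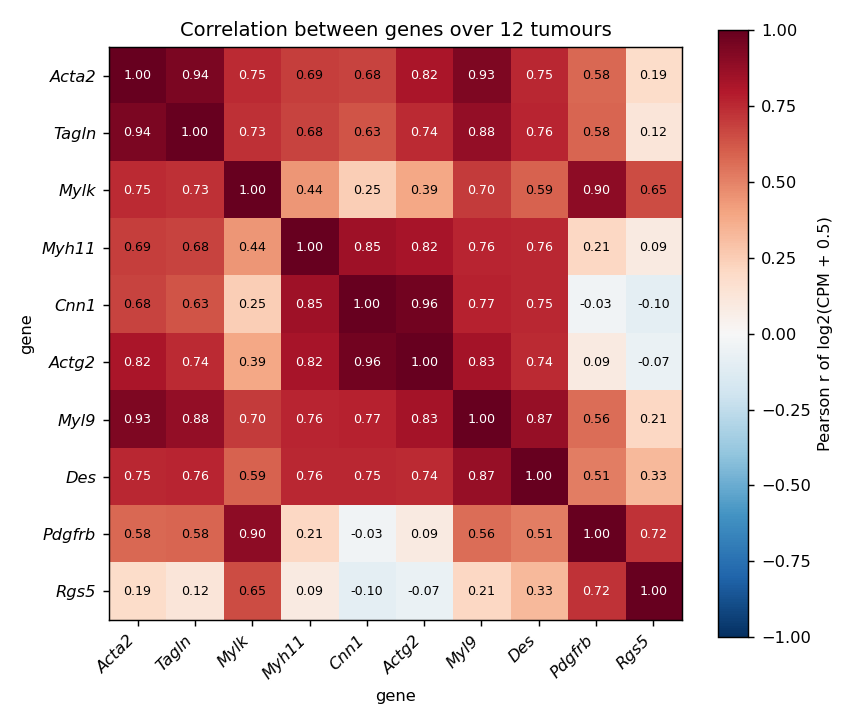
Pearson r between each pair of the 10 genes (rows and columns) on log2(CPM + 0.5) over 12 tumours; the diagonal is 1 by construction. The block of contractile genes reaches 0.96 for Cnn1 and Actg2, but Mylk is at 0.25 and 0.39 against these 2 genes. The Pdgfrb and Rgs5 rows are near 0 against Cnn1 and Actg2.

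Genes outside the set whose level was most like the mean of the 10 over the 12 tumours, among 14065 genes with a mean of at least 1 CPM, were Wfdc21 (r = 0.95), Dmpk, the myotonic dystrophy kinase of muscle (0.92), Snn (0.91), Bnc2, a transcription factor of fibroblasts (0.89), and the laminin chain Lamb1 (0.89). None of these 5 was among the top 5 by Spearman coefficient, so the ranking depends on the measure. Most like Rgs5 were Gja4, a connexin of arterial endothelium and mural cells (r = 0.95), Pcdh17 (0.94) and Egfl7, an endothelial secreted protein (0.93). Most like Pdgfrb were Man2b1 (0.97), Scg2 (0.96) and Tifa (0.96). For Myh11 they were the calcium release channel Ryr2 (0.89), Adamts14 (0.87) and Pgm5, a smooth muscle adhesion protein (0.85). For Des they were Filip1 (0.90), Nxn (0.88) and Adam12 (0.88).

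Other genes of the contractile machinery had medians nearer 0. Of 20 further genes of the smooth muscle apparatus, 14 had a lower and 6 a higher mean in untreated heterozygous tumours, with a median log2 fold change of -0.21. None passed over all genes. Caldesmon, Cald1, which binds actin and myosin, had -1.03 ± 0.33 (edgeR adjusted p = 0.27), the small heat shock protein Hspb6 0.67 ± 0.26 (0.34) and filamin A, Flna, -0.53 ± 0.25 (0.42). With gemcitabine the medians were -0.05 in wild-type and 0.22 in heterozygous mice. The smallest p belonged to Nexn (0.50 ± 0.26) in wild-type and to Hspb6 (-0.72 ± 0.26), against the direction of the median, in heterozygous mice. In treated mice the genotype median was 0.15, with vinculin, Vcl, at -0.62 ± 0.29, and the median of the difference of effects was 0.53, with Cald1 at 1.21 ± 0.47. None of the 20 passed in any comparison.

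Serum response factor, Srf, was at 26.2 to 32.4 CPM in untreated wild-type and 26.5 to 40.9 CPM in untreated heterozygous tumours. Its partner myocardin, Myocd, was at 3.37 to 4.32 and 1.19 to 4.63 CPM. The ranges of both genes overlapped between the genotypes. Of the related partners, Mrtfa was at 56.8 to 77.0 and 41.25 to 77.6 CPM, which also overlapped. Mrtfb was at 96.2 to 115 and 74.1 to 94.5 CPM, without overlap, while 8.41% of all genes separated in that direction. Its log2 fold change was -0.29 ± 0.15 (edgeR adjusted p = 0.46), and with gemcitabine in wild-type mice -0.33 ± 0.15 (0.58). These genes are given here for their role in the CArG element.

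All 16 further pericyte and mural genes had a lower mean in untreated heterozygous tumours, with a median of -0.78, and none passed over all genes. The transcription factor Tbx2 had -2.35 ± 0.50 (edgeR adjusted p = 0.16), the guanylate cyclase subunit Gucy1b1 -1.57 ± 0.51 (0.27) and the adhesion molecule Mcam -0.86 ± 0.30 (0.30). With gemcitabine all 16 were lower in wild-type mice (median -0.69, Tbx2 -1.17 ± 0.48), and 14 were higher in heterozygous mice (median 0.36). There the smallest p was that of Abcc9, the potassium channel subunit of pericytes, at 0.91 ± 0.29, with 25.0 to 54.7 CPM in untreated and 55.4 to 93.3 CPM in treated mice. In treated mice the genotype median was 0.23 (Steap4 1.02 ± 0.49), and the difference of effects had a median of 1.14 (Abcc9 1.09 ± 0.40).

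Among the PDGF genes, the ligand that Pdgfrb binds from endothelium, Pdgfb, had -0.58 ± 0.36 (edgeR adjusted p = 0.55) for genotype in untreated mice. The other receptor, Pdgfra, a fibroblast marker, had -1.60 ± 0.50 (0.27), and the ligand Pdgfd -1.60 ± 0.58 (0.32). Of the 5 genes, 4 were lower there and 4 were higher with gemcitabine in heterozygous mice (Pdgfd 1.53 ± 0.58), while Pdgfra was at -1.37 ± 0.50 with gemcitabine in wild-type mice. The smallest p for genotype in treated mice was that of Pdgfa (0.16 ± 0.24). None of the 5 passed in any comparison. Of the 8 relatives of Rgs5 that were tested, 5 were lower in untreated heterozygous tumours (median -0.54). Rgs4 had -1.96 ± 0.41 (edgeR adjusted p = 0.16), Rgs2 -1.09 ± 0.33 (0.26) and Rgs18 -0.94 ± 0.78 (0.67). The level of Rgs18 was low, at 0.441 to 1.775 CPM in untreated wild-type and 0.281 to 0.6355 CPM in untreated heterozygous tumours. With gemcitabine in wild-type mice Rgs2 had -1.37 ± 0.33 (0.56), and the difference of effects for Rgs4 was 2.03 ± 0.57 (0.25). The other actins, cytoplasmic Actb and Actg1, had -0.50 ± 0.22 (0.38) and -0.39 ± 0.22 (0.50) for genotype in untreated mice. Acta1, the skeletal form, was at 0.922 CPM or below and Actc1, the cardiac form, at 0.419 CPM or below in every library.

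**Figure D5:**
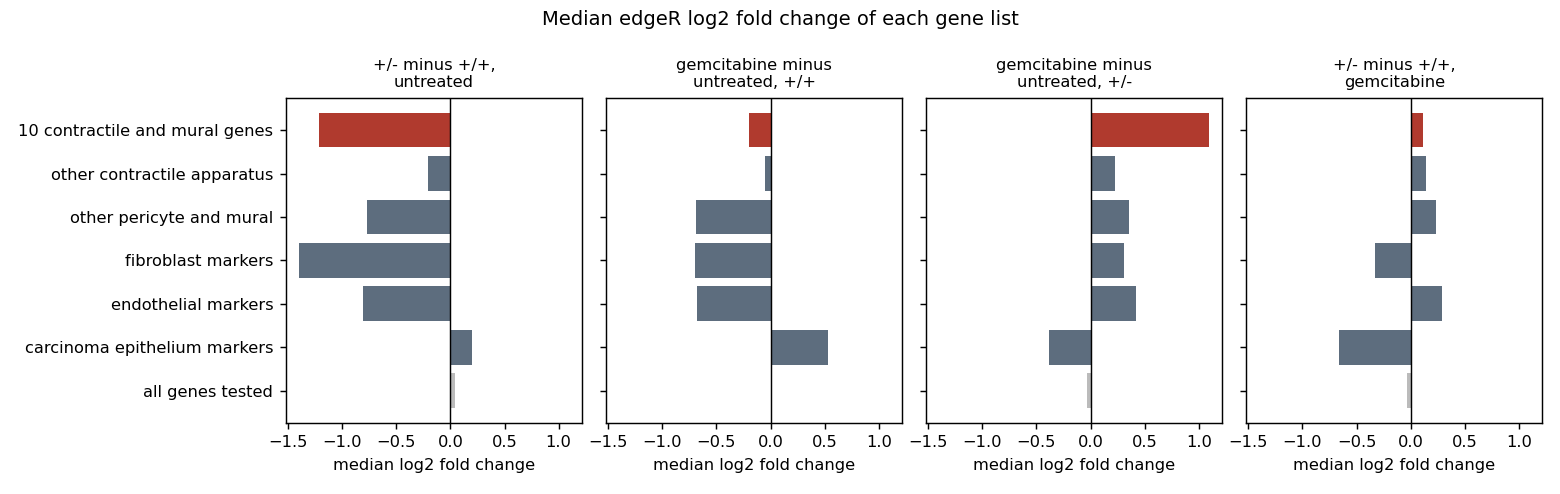
Median edgeR log2 fold change (horizontal axis) of the 10 genes, of 5 other gene lists and of all genes tested (vertical axis) in 4 comparisons, one panel each; bars start at 0. For genotype in untreated mice the 10 genes (-1.21) and the fibroblast markers (-1.40) reach farthest down, while the median of all genes is 0.04.

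Markers of other cells were compared between the same groups, and none of their genes passed in any comparison. Fibroblast markers had lower means in untreated heterozygous tumours for 12 of 12 genes (median -1.40), with summed levels of 12112 to 19002 CPM in wild-type and 4523 to 7810 CPM in heterozygous tumours. In treated mice they summed to 6597 to 16149 CPM in wild-type and 4631 to 9350 CPM in heterozygous tumours. Endothelial markers had lower means for 9 of 10 genes (median -0.81), at 402 to 655 CPM against 236 to 371 CPM. In treated mice these stood at 281 to 373 and 340 to 414 CPM. At an unadjusted edgeR p under 0.05, 11 fibroblast and 4 endothelial genes were lower in untreated heterozygous tumours. The share over all genes was 6.65%. With gemcitabine, 11 of 12 and 10 of 10 were lower in wild-type mice (medians -0.70 and -0.68). In heterozygous mice 11 of 12 and 9 of 10 were higher (medians 0.31 and 0.42). The difference of effects was positive for 12 of 12 and 10 of 10 (medians 1.01 and 1.09). Carcinoma epithelium markers had higher means for 6 of 6 genes (median 0.20), with overlapping sums of 3055 to 4911 and 3733 to 5364 CPM. In treated tumours these summed to 4034 to 8593 CPM in wild-type and 3299 to 4433 CPM in heterozygous mice. Means were higher with gemcitabine in wild-type mice for 6 of 6 genes (median 0.53). They were lower for 5 of 6 in treated heterozygous against treated wild-type tumours (median -0.66). Of these, 3 had an unadjusted edgeR p under 0.05, against 7.55% of all genes in either direction. In bulk tissue fewer cells of a type and less RNA per cell cannot be told apart, and the part of these cell types in the results above was not tested.

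Skeletal muscle markers, another source of desmin, summed to 4.34 to 33.4 CPM over the 12 libraries, with creatine kinase, Ckm, at most 0.547 CPM. The highest sums rest on 1 gene, the troponin Tnni2, at 0.907 to 7.26 CPM in untreated wild-type and 7.72 to 29.8 CPM in untreated heterozygous tumours. Visceral smooth muscle and gut wall markers summed to 366 to 445 CPM in untreated wild-type and 233 to 379 CPM in untreated heterozygous tumours, with 7 of 9 lower (median -0.57). In treated tumours they summed to 332 to 409 CPM in wild-type and, in the heterozygous mice 1, 2 and 3, to 305, 138 and 507 CPM. Most of each sum is 1 gene, Ano1, a chloride channel of gut pacemaker cells, at 113 to 480 CPM in treated heterozygous tumours, while the other genes of the list were at 20.8 CPM (Kit) or below in every library. Mesothelial markers summed to between 386 and 1271 CPM, of which Msln alone was 382 to 1255 CPM and Upk3b at most 3.45 CPM. Acinar enzymes summed to 4.01 to 565 CPM in untreated wild-type and 0.713 to 1.81 CPM in untreated heterozygous tumours, with 5 of 14 at 0 in all of the latter. Islet genes summed to 13.7 to 236 and 0.139 to 3.20 CPM. In treated mice the acinar sums were 1.325 to 272 CPM in wild-type and 1.675 to 3.075 CPM in heterozygous tumours. There 13 of 13 acinar genes tested were lower, 10 at an unadjusted edgeR p under 0.05, against 7.55% of all genes in either direction. Treated islet sums were 0.697 to 12.2 and 0.722 to 49.4 CPM. With the acinar sum as a covariate the median log2 fold change of the 10 genes for genotype in untreated mice was -1.07, but Rgs5 was at -0.33, Pdgfrb at -0.64 and Mylk at -0.88, and the lowest edgeR adjusted p of the set was 0.784. This sum was higher in every untreated wild-type than in every untreated heterozygous tumour. It and genotype therefore cannot be fully told apart there. Hepatocyte genes summed to 429 to 1075 and 263 to 365 CPM, of which transferrin, Trf, alone was 421.5 to 1066 and 258 to 361 CPM, with albumin, Alb, at most 9.49 CPM. The share of 7SL and 7SK RNA was 5.53% to 7.87% of counts in untreated wild-type and 8.19% to 9.59% in untreated heterozygous libraries, and 8.28% to 8.61% in treated wild-type and 7.26% to 8.52% in treated heterozygous libraries. The mitochondrial share was 1.43% to 2.33% in untreated wild-type, 2.26% to 3.89% in untreated heterozygous, 2.44% to 2.90% in treated wild-type and 1.78% to 2.64% in treated heterozygous libraries. The part of both shares was not tested.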

How the data were processed

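Frozen tumours gave total RNA, which was made into strand-marked libraries with ribosomal RNA removed, per the labels' protocols. The deposited values are expected counts per Ensembl gene, made by the authors with RSEM on GRCm38, per the submitters' processing notes. Neither a version of RSEM nor an aligner, annotation release or strand setting is named in those notes. Every value was whole, so rounding changed none.

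Each library is 1 mouse, and genotype, treatment and number came from the sample titles. Symbols, positions and exon lengths came from GENCODE M21 by gene ID, which named 52489 of 52636 IDs. The tests used edgeR 4.0.16 under R 4.3.3. After filterByExpr 24065 genes remained, TMM factors lay between 0.897 and 1.09, and the quasi-likelihood model (robust) took all 12 libraries in 4 groups. The biological coefficient of variation was 46.4%, and adjusted p-values are Benjamini-Hochberg over all genes tested. Standard errors and 95% intervals come from this model. The script was tested on simulated data. Libraries held a median of 45785246 counts, and at these depths the spread between mice, not counting error, sets the precision.

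The members and gene lists were chosen with earlier results of these data known. Named genes were all members, Cdh11, from each list up to 3 genes with the smallest p for genotype in untreated mice and 1 in each other comparison, and the genes most like the members by Pearson r, leaving out predicted and RIKEN genes. Alternatives were DESeq2 1.42.0, upper quartile factors, no filter, a filter of 1 CPM in 3 libraries, the replicate block, only the compared groups, an Xist or acinar covariate, and leaving out each library. Similar transcripts were sought with blastn 2.17.0. Promoters are from RefSeq (GRCm38.p6). Also, 1 list and some of the genes that the rule names are not reported here.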

Additional observations from a re-analysis of the deposited data

How the results depend on the processing

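No member passed in any of the 5 comparisons with edgeR under upper quartile factors, either other filter, or either covariate, nor with only the compared groups in the 4 comparisons where that fit was made. DESeq2 passed 4 members for genotype in untreated mice and 2 for the difference of effects, and leaving out 1 library passed 0 to 1 for that difference. DESeq2 called 704, 122, 170, 234 and 656 genes in all in the report's order of comparisons, against 4, 0, 2, 1 and 2. For genotype in untreated mice, no filter called 10 genes and only the compared groups 2. For genotype in treated mice, only the compared groups called 12 and the replicate block and either covariate 0. Without heterozygous untreated mouse 1 12 genes were called between the untreated genotypes, 9 between treated and untreated heterozygous mice and 7 for the difference of effects, with no member among them. The cause was not tested.

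Of 750 alternative values of single members, 712 kept their direction and side of the threshold, 7 newly passed and 31 changed sign, 25 of these with a library left out. In treated mice the genotype log2 difference of Cnn1 was 0.0026 with upper quartile factors. With Xist as a covariate, which genotype cannot be told apart from there, it was 0.082 for Myh11, 1.19 for Cnn1, 1.35 for Actg2, 0.29 for Des and -0.30 for Rgs5. Leaving out 1 library gave, for gemcitabine in wild-type mice, -0.48 to 0.038 for Acta2, -0.10 to 0.90 for Actg2, -0.46 to 0.10 for Myl9 and -0.53 to 0.18 for Des. For genotype in treated mice it gave -0.12 to 0.44 for Acta2, -0.65 to 0.41 for Myh11, -1.11 to 0.42 for Cnn1, -0.84 to 0.13 for Actg2, -0.17 to 0.40 for Myl9, -0.85 to 0.085 for Des and -0.095 to 0.81 for Rgs5.

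With the replicate block the medians over the members were -1.26, -0.26, 1.08, 0.113 and 1.36, and no member passed. Same-numbered libraries correlated between -0.247 and 0.173 over 18 pairs, 4 of them over 0.1. Of 12 libraries, 4 correlated best with their own number. With 3 libraries per group this check cannot exclude a litter or batch shared by number. With 3 mice per group, the spread between mice limits what could be called.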
